A study of Mus musculus with 16 samples.

Results

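The 9 genes described here encode the machinery of MHC class I antigen presentation: the light chain B2m, the heavy chains H2-K1, H2-D1 and H2-T23, the peptide transporter subunits Tap1 and Tap2, the loading factor Tapbp, the trimming aminopeptidase Erap1 and the transcriptional activator Nlrc5. They were chosen by gene symbol, and all 9 were found among the 25105 genes of the expression table. RNA-seq was done on dispersed pancreatic islet cells of Grp78 flox/flox mice (tissue of 2 male and 2 female adults), cultured for 72 h in 15 mM glucose, in 4 groups of 4 libraries. Every culture carried the floxed alleles and an adenovirus: Ad-LacZ with DMSO, Ad-Cre with DMSO, Ad-LacZ with the pan-JNK inhibitor JNK-IN-8, and Ad-Cre with the same inhibitor, which was present from the start. No culture without virus was part of the series, and islet cells of every type were exposed to it. The labels name the 4 islet preparations F1, M1, M2 and F2, and each preparation gave 1 library to each group. Every preparation title also holds a pair of unexplained numbers, so whether it was a pool of animals is not known. The study used these groups to ask how islet cells respond to loss of the chaperone GRP78 and what JNK contributes.

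MHC class I molecules carry peptides from inside the cell to its surface, where CD8+ T cells read them. A polymorphic heavy chain pairs with B2m in the endoplasmic reticulum (ER), peptides made by the proteasome enter through the Tap1-Tap2 transporter, Erap1 shortens them, and Tapbp (tapasin) holds the empty molecule at the transporter with the chaperones calreticulin and Pdia3. Heavy chain, B2m, Tap1 and immunoproteasome genes are induced by interferons and NF-kappaB, with Nlrc5 acting as a class I specific co-activator. Islet beta cells that display more class I are a known feature of autoimmune diabetes.

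Values are RPKM (reads per kilobase of gene and mega reads), which are per length, so levels can be set side by side between genes. Depth, read from the steps between low values, was 7.7 to 25.5 M (mega) reads. The lowest was the Ad-Cre + JNK inhibitor library of F2, the single library whose label carries another code than the other 15. Hspa5, the gene of GRP78, was measured between 395 and 483 RPKM in Ad-LacZ and between 1107 and 1598 RPKM in the libraries labelled Ad-Cre (log2 change 1.53, SE 0.17, limma adjusted p = 0.0015). The level of the targeted gene therefore ran opposite to a knockdown, but a level for the whole gene cannot tell its deleted exons apart from those that remain, so it does not check the labels. The study measured GRP78 by other assays, which were not analysed here. "Ad-Cre" below means the libraries labelled so. Beta cell markers summed to 33252 to 84724 RPKM in every library, which fits the islet label, while 8 T and NK cell markers summed to at most 2.81 RPKM.

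The promoters of the called members are shown first. Whether their letters bear on the changes described below was not tested. RefSeq windows (GRCm38.p6, 250 bases before to 50 bases after the start, 5′ to 3′ on the gene's strand) were at hand for 7 of the 9 members. Capitals mark matches, on either strand, to a kappaB site (GGGGATTCC), interferon response elements (GAANNGAAA or GAAANNGAA, which can overlap), the X2 core (TGACG) and the Y box (ATTGG). The windows lie at chr17:34000298-34000597 on the minus strand (H2-K1), chr17:35262844-35263143 on the plus strand (H2-D1), chr17:36032652-36032951 on the minus strand (H2-T23), chr17:34187306-34187605 on the plus strand (Tap1) and chr13:74639603-74639902 on the plus strand (Erap1).
H2-K1: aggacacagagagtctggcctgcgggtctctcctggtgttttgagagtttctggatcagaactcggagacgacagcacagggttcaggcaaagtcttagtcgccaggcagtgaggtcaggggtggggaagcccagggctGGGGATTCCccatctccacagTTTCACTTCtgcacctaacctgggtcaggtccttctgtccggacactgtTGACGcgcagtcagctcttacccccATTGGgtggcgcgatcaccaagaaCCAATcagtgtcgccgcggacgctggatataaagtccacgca
H2-D1: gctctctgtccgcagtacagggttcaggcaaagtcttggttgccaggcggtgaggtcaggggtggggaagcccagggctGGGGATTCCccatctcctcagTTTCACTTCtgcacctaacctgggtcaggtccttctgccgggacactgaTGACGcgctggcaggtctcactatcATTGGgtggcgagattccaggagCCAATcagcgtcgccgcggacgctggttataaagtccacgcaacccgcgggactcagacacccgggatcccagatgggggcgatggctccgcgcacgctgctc
H2-T23: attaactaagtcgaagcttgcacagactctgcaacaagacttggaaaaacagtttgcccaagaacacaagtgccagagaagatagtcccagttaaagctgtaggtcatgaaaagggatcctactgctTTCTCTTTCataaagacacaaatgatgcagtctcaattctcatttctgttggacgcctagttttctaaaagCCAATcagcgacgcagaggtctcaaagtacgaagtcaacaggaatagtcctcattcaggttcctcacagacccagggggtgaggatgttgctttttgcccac
Tap1: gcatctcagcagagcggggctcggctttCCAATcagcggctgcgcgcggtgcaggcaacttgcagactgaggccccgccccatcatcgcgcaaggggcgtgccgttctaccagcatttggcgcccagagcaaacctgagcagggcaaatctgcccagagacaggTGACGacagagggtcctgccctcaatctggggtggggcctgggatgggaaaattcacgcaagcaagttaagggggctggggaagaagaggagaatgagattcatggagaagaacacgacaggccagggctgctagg
Erap1: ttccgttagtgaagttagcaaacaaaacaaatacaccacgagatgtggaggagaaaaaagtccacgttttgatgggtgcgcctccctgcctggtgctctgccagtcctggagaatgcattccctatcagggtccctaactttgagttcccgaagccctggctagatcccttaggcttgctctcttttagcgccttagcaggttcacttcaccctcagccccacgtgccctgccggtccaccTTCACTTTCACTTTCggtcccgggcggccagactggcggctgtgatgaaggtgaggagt

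The H2-K1 and H2-D1 windows could be aligned over 228 bases, of which 206 (90.4%) were identical, and both held the kappaB site, 1 GAANNGAAA element, 1 X2 core and 2 Y boxes in the same order. Of all 32851 promoter windows in the table, 0.250% held that kappaB site, 7.52% GAANNGAAA, 8.56% GAAANNGAA, 20.8% the X2 core and 37.4% the Y box. GAAANNGAA was matched in H2-T23, B2m and, in 2 overlapping places, Erap1. Erap1 was the member with a window but no Y box. The X2 core was held by B2m, H2-K1, H2-D1 and Tap1, and not by H2-T23, Tapbp or Erap1. No member window held an ER stress response element, which 0.119% of all windows did. These are letter matches only, other spellings of the kappaB site were not searched, and binding was not measured. Tap1 lies head to head with the immunoproteasome subunit gene Psmb9, and their windows overlap by 275 bases.

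In the GENCODE annotation of GRCm38, B2m (ENSMUSG00000060802) lies at chr2:122147686-122153083. Most of the others lie in the mouse MHC on chromosome 17: Tapbp at chr17:33915899-33929292, H2-K1 at chr17:33996017-34000347, Tap1 at chr17:34187553-34197225, Tap2 at chr17:34203527-34216321, H2-D1 at chr17:35262730-35267499 and H2-T23 at chr17:36029773-36032855. Erap1 lies at chr13:74639568-74693201 and Nlrc5 at chr8:94434356-94527272. Heavy chain genes resemble each other, so reads can be split between copies. The labels do not give the H2 haplotype of the mice, and its part in the heavy chain levels was not tested. Of the 150-base windows of the longest H2-D1 transcript, 1.79% were identical to H2-Q1, against 0.831% for H2-T23 (all to Gm7030) and 0 for the other members. A match with a few mismatches would not be counted by this measure.

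In Ad-LacZ cells the heavy chain H2-K1 stood highest at 129 RPKM ± 12.1 (SD, n = 4). It was followed by B2m at 93.2 ± 16.3 and H2-D1 at 86.2 ± 14.3, whose ranges overlapped. Tapbp stood at 47.7 ± 7.12, Erap1 at 16.0 ± 0.47, the nonclassical heavy chain H2-T23 at 8.34 ± 1.72, Tap2 at 4.12 ± 0.75 and Tap1 at 1.86 ± 0.43. Each of these was separated from its neighbours in the order, with no overlap between the 4 libraries of adjacent genes. Nlrc5 was at most 0.220 RPKM in this group. Both transporter subunits thus stood far below H2-K1 and H2-D1 and nearer to H2-T23, on the same per-length scale.

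**Figure D1:**
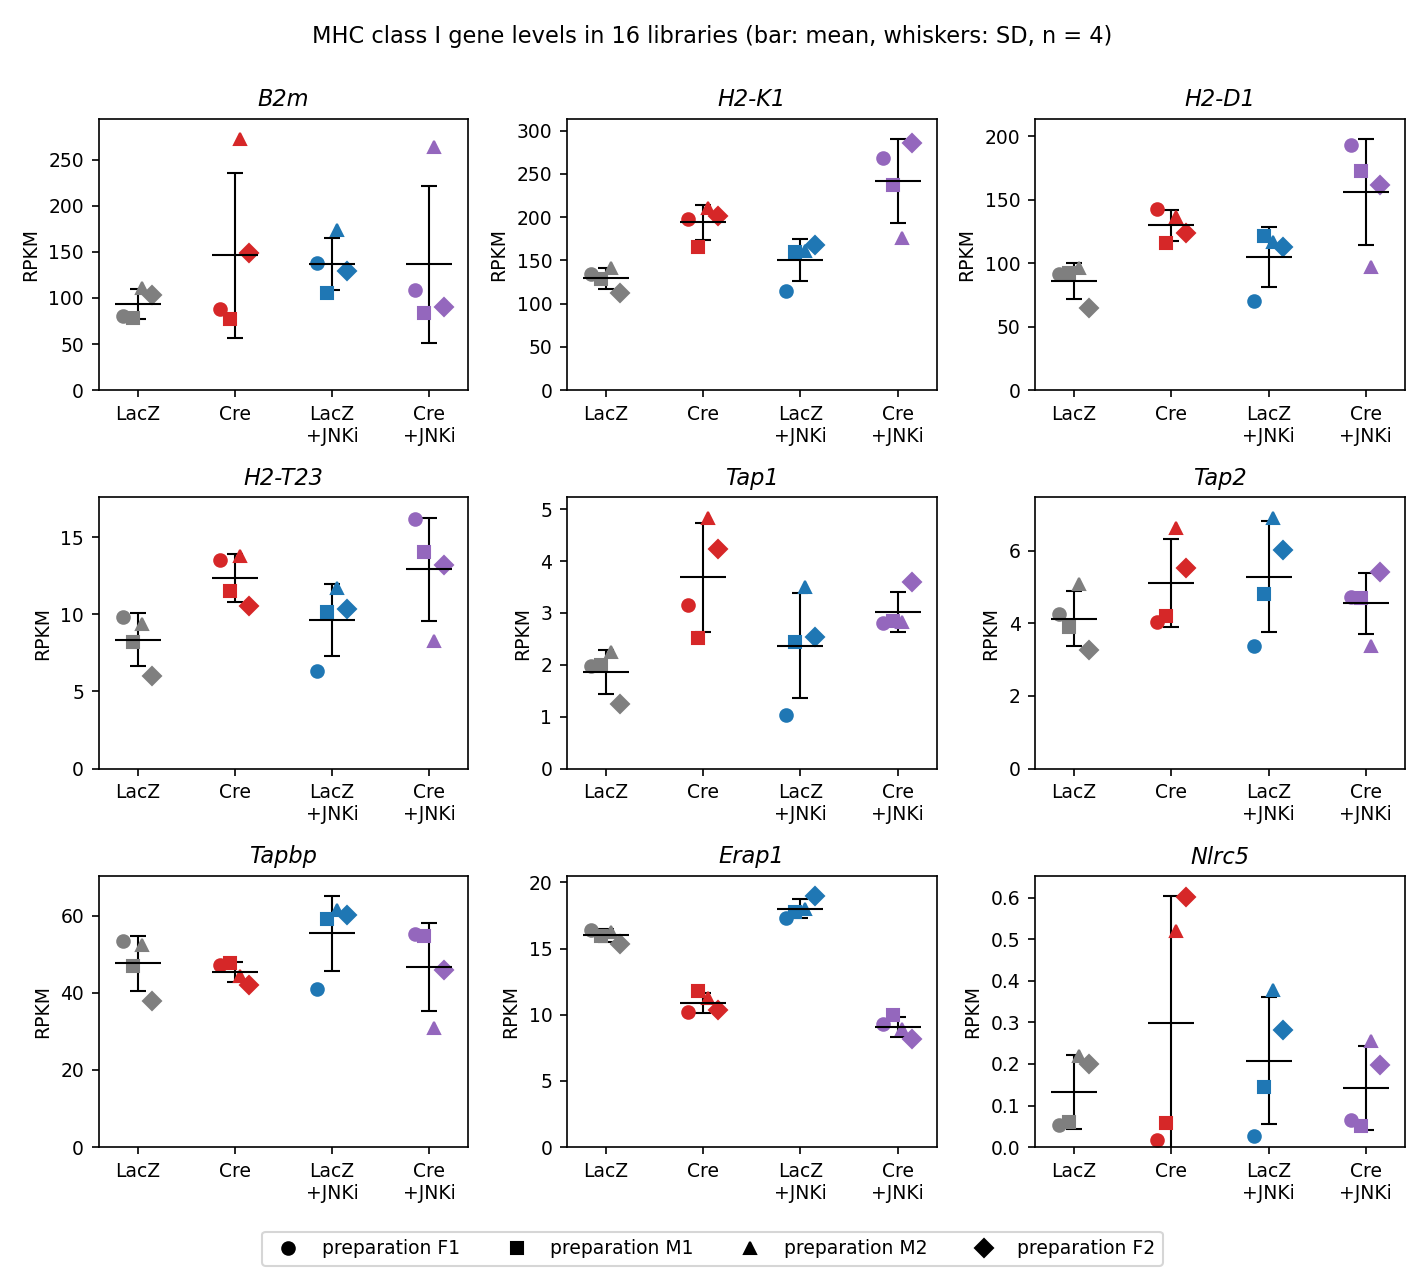
RPKM of the 9 members (y axes, each from 0) in the 4 groups (x axis; JNKi is the JNK inhibitor), 1 point per library with a symbol per preparation, horizontal bars at the mean and whiskers at 1 SD (n = 4; the lower Nlrc5 whisker in Ad-Cre runs below 0 and is cut off there). H2-K1, H2-D1, H2-T23 and Tap1 stood higher in Ad-Cre than in every Ad-LacZ library and Erap1 stood lower, while B2m reached 272 RPKM in the M2 library alone.

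With Ad-Cre, the classical and nonclassical heavy chains and Tap1 rose and Erap1 fell, while B2m, Tap2 and Tapbp did not pass the test. The rises were 1.51-fold for H2-K1, 1.53-fold for H2-D1, 1.46-fold for H2-T23 and 1.63-fold for Tap1, and the fall of Erap1 was 1.42-fold, all on the log2(RPKM + 1) scale. Of the 8 members that passed the filter on low values (above 1 RPKM in at least 4 libraries), 4 were called higher and 1 lower at an adjusted p under 0.05. Of the 11590 genes in this fit 19.3% were called, 8.98% higher and 10.3% lower (34.5% in all with the preparation as a block, which left the 5 member calls). The median log2 change of the 8 was 0.52, against 0.01 over all genes.

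H2-K1, a classical heavy chain that presents to CD8+ T cells, was measured at 134, 128, 141 and 113 RPKM in Ad-LacZ (F1, M1, M2 and F2, the order kept throughout) and at 198, 165, 211 and 202 RPKM in Ad-Cre. Every Ad-Cre library stood above every Ad-LacZ library. The log2 change was 0.60 (SE 0.11, limma adjusted p = 0.0104). H2-D1, the second classical heavy chain here, went from 91.6, 92.4, 95.9 and 65.0 RPKM to 143, 116, 136 and 124 RPKM. Again the groups did not overlap, and the log2 change was 0.61 (SE 0.15, limma adjusted p = 0.0238). H2-T23 encodes Qa-1, a nonclassical molecule read by NK cell receptors. Its values were 9.81, 8.20, 9.39 and 5.97 RPKM in Ad-LacZ and 13.5, 11.5, 13.8 and 10.5 RPKM in Ad-Cre, also without overlap (log2 change 0.54, SE 0.16, limma adjusted p = 0.0425). The ratio of H2-K1 to H2-D1 was 1.39 to 1.73 in Ad-LacZ and 1.38 to 1.63 in Ad-Cre, so it differed by less than the spread between libraries.

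Tap1, an ATPase subunit of the peptide transporter, was measured at 1.98, 1.99, 2.24 and 1.24 RPKM in Ad-LacZ and at 3.15, 2.52, 4.84 and 4.23 RPKM in Ad-Cre. The groups did not overlap, and the log2 change was 0.71 (SE 0.16, limma adjusted p = 0.0194). Its partner Tap2 was at 4.26, 3.89, 5.07 and 3.27 RPKM in Ad-LacZ and at 4.04, 4.2, 6.63 and 5.53 RPKM in Ad-Cre. Those groups overlapped, and the log2 change of 0.25 had a 95% interval from -0.05 to 0.56 (limma adjusted p = 0.211). Tapbp, the tapasin gene, was at 53.5, 46.9, 52.4 and 37.9 RPKM against 47.3, 47.6, 44.3 and 42.1 RPKM. It was higher in 2 preparations and lower in 2, and its log2 change was -0.05 (95% interval -0.35 to 0.26, limma adjusted p = 0.836).

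Erap1, which trims peptides in the ER to the length that class I binds, moved against the others. It was measured at 16.4, 16.0, 16.3 and 15.4 RPKM in Ad-LacZ and at 10.2, 11.8, 11.2 and 10.4 RPKM in Ad-Cre. The gap between the groups was several times the spread within either, and the log2 change was -0.50 (SE 0.09, limma adjusted p = 0.00773). For H2-K1, H2-D1, H2-T23, Tap1 and Erap1 all 4 preparations moved alike, which follows from groups that do not overlap and adds nothing to it. The exact two-sided permutation test gave p = 0.0286 for each, the smallest that 70 splits of 4 against 4 libraries can give. It treated the libraries as unpaired, so it is no test of that shared direction. Groups failed to overlap in 27.7% of all genes tested.

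B2m, the light chain shared by all class I molecules, split by preparation. Its values were 80.2, 78.4, 111 and 103 RPKM in Ad-LacZ and 88.2, 77.1, 272 and 148 RPKM in Ad-Cre. The M2 library carried most of the difference, F1 and M1 hardly moved, and the groups overlapped. The log2 change was 0.50 with a 95% interval from -0.24 to 1.23 (limma adjusted p = 0.318; 0.0901 once preparation enters as a block). The summed heavy chain level of H2-K1 and H2-D1 over B2m, as a ratio of RPKM, went from 2.82 to 3.86 in F1 and from 2.81 to 3.64 in M1, but from 2.14 to 1.28 in M2. In F2 it went from 1.72 to 2.20.

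Nlrc5, the co-activator, did not pass the filter and was not tested. It was at 0.0527, 0.0600, 0.220 and 0.201 RPKM in Ad-LacZ and at 0.0165, 0.0593, 0.520 and 0.602 RPKM in Ad-Cre. The high values were those of M2 and F2 in both groups. Over all 16 libraries these levels stood for about 2 to 119 reads, so F1 and M1 values rest on few reads.

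**Figure D2:**
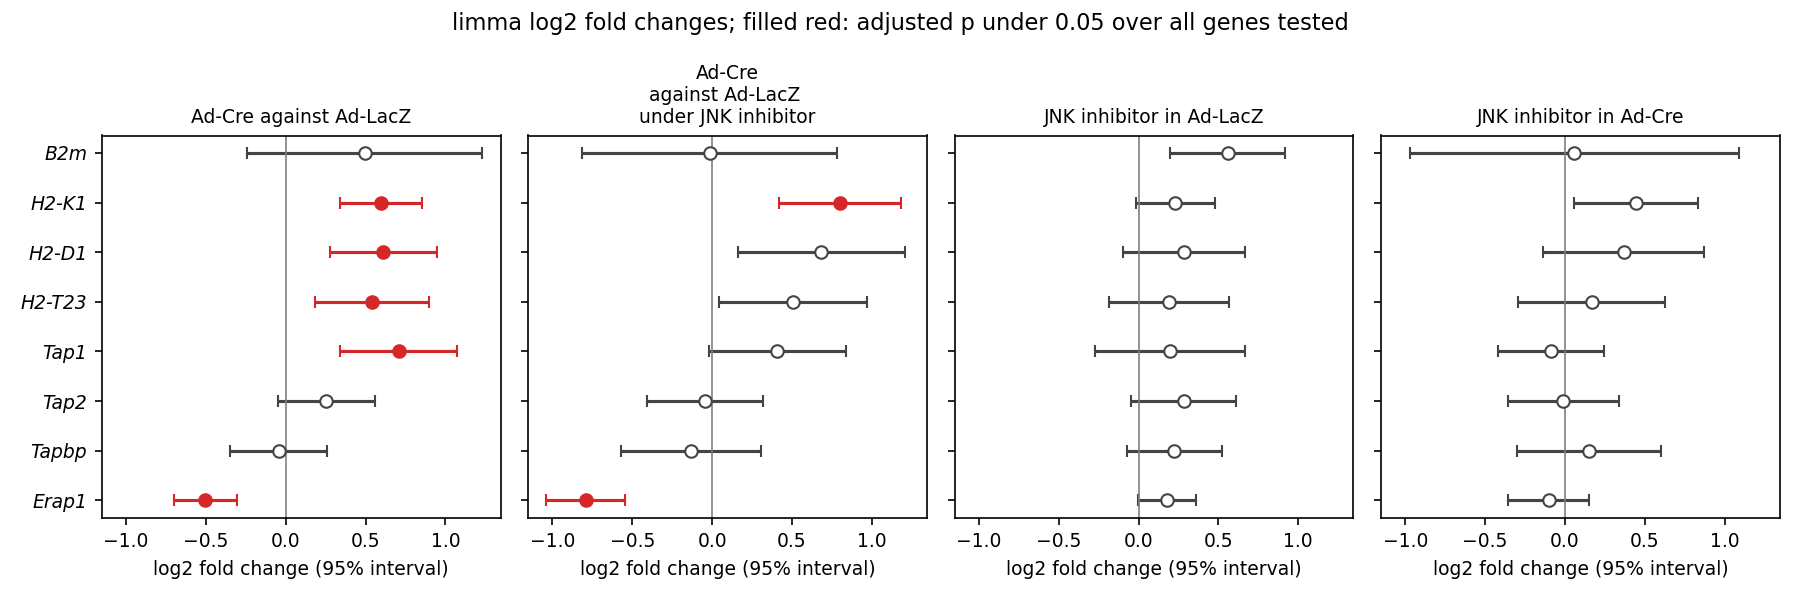
Log2 fold changes from limma (x axis, log2(RPKM + 1) scale) with 95% intervals for the 8 tested members (y axis) in the 4 comparisons of 4 against 4 libraries; filled red points passed an adjusted p of 0.05 across every gene in the fit. H2-K1 and Erap1 were called in both virus comparisons, H2-D1, H2-T23 and Tap1 in the one without inhibitor, and no member in either inhibitor comparison.

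The full set of 5 calls needed all 4 preparations. Leaving out a preparation left 1 call without F1, 3 without M1, 2 without M2 and 0 without F2. H2-K1 stayed called without F1, M1 or M2. The calls over all genes went from 2237 to 796 without F1, 700 without M1, 1070 without M2 and 373 without F2. The 5 members had an unadjusted p under 0.05 in each of these fits. So did 25.2% (without F2) to 30.5% (without M2) of genes, and 34.6% with all 4 preparations. With F1 and M1 alone, a choice made after seeing the data, 0 members were called at an adjusted p under 0.05 and the same 5 at an unadjusted p under 0.05, against 7.01% and 32.1% of 11333 genes. Their log2 changes there were 0.50 for H2-K1, 0.52 for H2-D1, 0.47 for H2-T23, 0.39 for Tap1 and -0.49 for Erap1.

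Other cell types moved with the virus in some preparations. The summed level of 14 macrophage markers was 97.6, 106, 94.7 and 106 RPKM in Ad-LacZ and 101, 123, 276 and 239 RPKM in Ad-Cre. The sum of 8 stellate and fibroblast markers went from 164, 274, 556 and 350 RPKM to 177, 279, 1836 and 702 RPKM. In F1 and M1 the log2 ratios of these sums were 0.05 and 0.22 for macrophage and 0.12 and 0.02 for stellate markers. There H2-K1, H2-D1, H2-T23 and Tap1 stood higher and Erap1 lower. The macrophage ratio in M1 was near the log2 change of Tap1 there, 0.26. In M2 and F2, where both sums stood higher with Ad-Cre, B2m and Nlrc5 stood higher as well, and Tap1 and Tap2 changed more (log2 changes 0.85 and 1.18 for Tap1 and 0.35 and 0.57 for Tap2, against 0.54 and 0.26 and -0.01 and 0.11 in F1 and M1). The T and NK cell marker sum, though low, also stood higher there, at 2.81 against 0.112 RPKM in M2 and 1.77 against 0.128 RPKM in F2, and was lower with Ad-Cre in F1 and M1. The sum of 4 B cell markers behaved alike, with log2 ratios of 1.44 and 1.14 in M2 and F2. Of the 14 macrophage markers 11 were tested and 4 were called higher (C1qb, C1qc, Ctss and Fcer1g, and 8 with the preparation as a block). Of the 9 beta cell markers 2 were called lower (6 with the block) and 0 higher. Of all 11590 genes 1041 were called higher and 1196 lower (1962 and 2040 with the block). The part of cell composition in the member changes was not tested beyond these values, and in bulk libraries fewer cells of a type cannot be told apart from less RNA per cell.

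**Figure D3:**
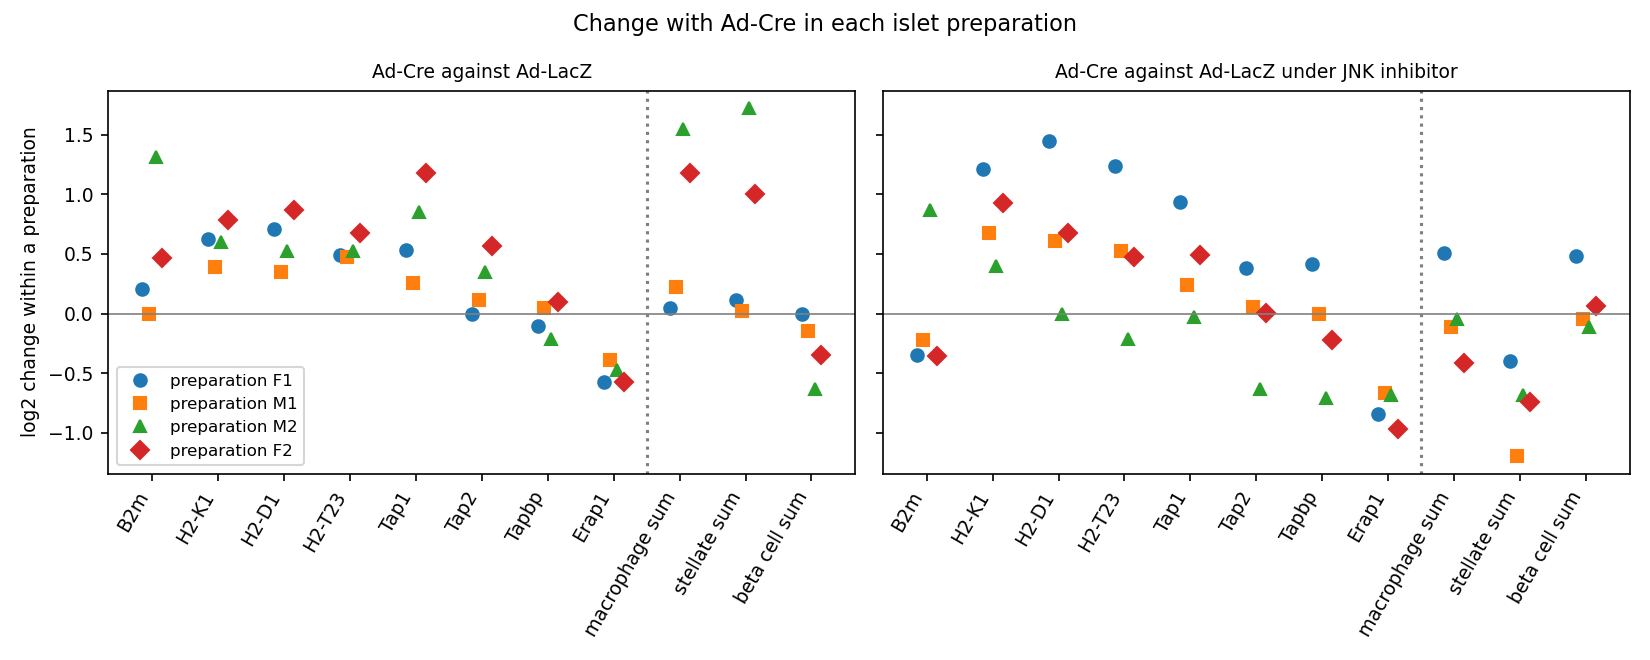
Log2 change with Ad-Cre within each preparation (y axis) without inhibitor (left) and under JNK inhibitor (right) for the 8 tested members, and, right of the dotted line, the log2 ratio of the summed RPKM of macrophage, stellate and beta cell markers. Without inhibitor, macrophage and stellate sums rose most in M2 and F2 (1.54 and 1.18 for macrophage markers, against 0.05 and 0.22 in F1 and M1). Each of the 5 members called without inhibitor moved the same way there in all 4 preparations, which follows from groups that did not overlap.

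Other genes of the pathway were described from lists. Of 14 further class I heavy chains 6 passed the filter and 3 were called higher with Ad-Cre: H2-T22 (log2 change 1.01, SE 0.14, limma adjusted p = 0.00305), H2-Q4 (0.74, SE 0.19, adjusted p = 0.0266) and H2-M3 (0.40, SE 0.11, adjusted p = 0.0425). H2-T22 encodes a ligand of gamma delta T cell receptors and H2-M3 presents formylated peptides. With the block 4 were called higher and H2-T24 lower. The median of the list was 0.32.

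The immunoproteasome, the proteasome form that favours class I ligands, also rose in part. Its catalytic subunits Psmb8 (0.76, SE 0.10, limma adjusted p = 0.00305) and Psmb10 (0.70, SE 0.13, adjusted p = 0.0110) were called higher, as was the activator subunit Psme2 (0.47, SE 0.13, adjusted p = 0.0345). The paired activator subunit Psme1 had a log2 change of -0.09 (SE 0.11, adjusted p = 0.607). Psmb9, which shares its promoter region with Tap1, stayed under the filter at 0.734 RPKM ± 0.149 in Ad-LacZ and 1.01 ± 0.211 in Ad-Cre (SD, n = 4).

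All 4 chaperones of the loading complex were called higher, with a median of 0.81. Calr (calreticulin) rose from 279 RPKM ± 34.8 to 820 ± 107, a log2 change of 1.57 (SE 0.16, limma adjusted p = 0.0015). The protein disulfide isomerase Pdia3 changed by 1.14 (SE 0.16, adjusted p = 0.00355), calnexin (Canx) by 0.49 (SE 0.11, adjusted p = 0.0207) and the tapasin relative Tapbpl by 0.42 (SE 0.10, adjusted p = 0.0212). Calr, Canx and Pdia3 fold many ER glycoproteins besides class I, and Calr and Pdia3 changed more than any class I member.

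Among 6 cytosolic or vesicular peptidases that shape or destroy class I peptides, Lap3 (0.88, SE 0.09) and Thop1 (0.43, SE 0.09) were called higher and Npepps (-0.35, SE 0.09) lower. Lnpep, a relative of Erap1 that trims peptides in endosomes, had a log2 change of -0.36 (limma adjusted p = 0.191, and 0.0389 with the block). Of 8 class I-like molecules 5 were tested and Hfe, which binds B2m and governs iron uptake, was called higher (0.86, SE 0.14, limma adjusted p = 0.00649).

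**Figure D4:**
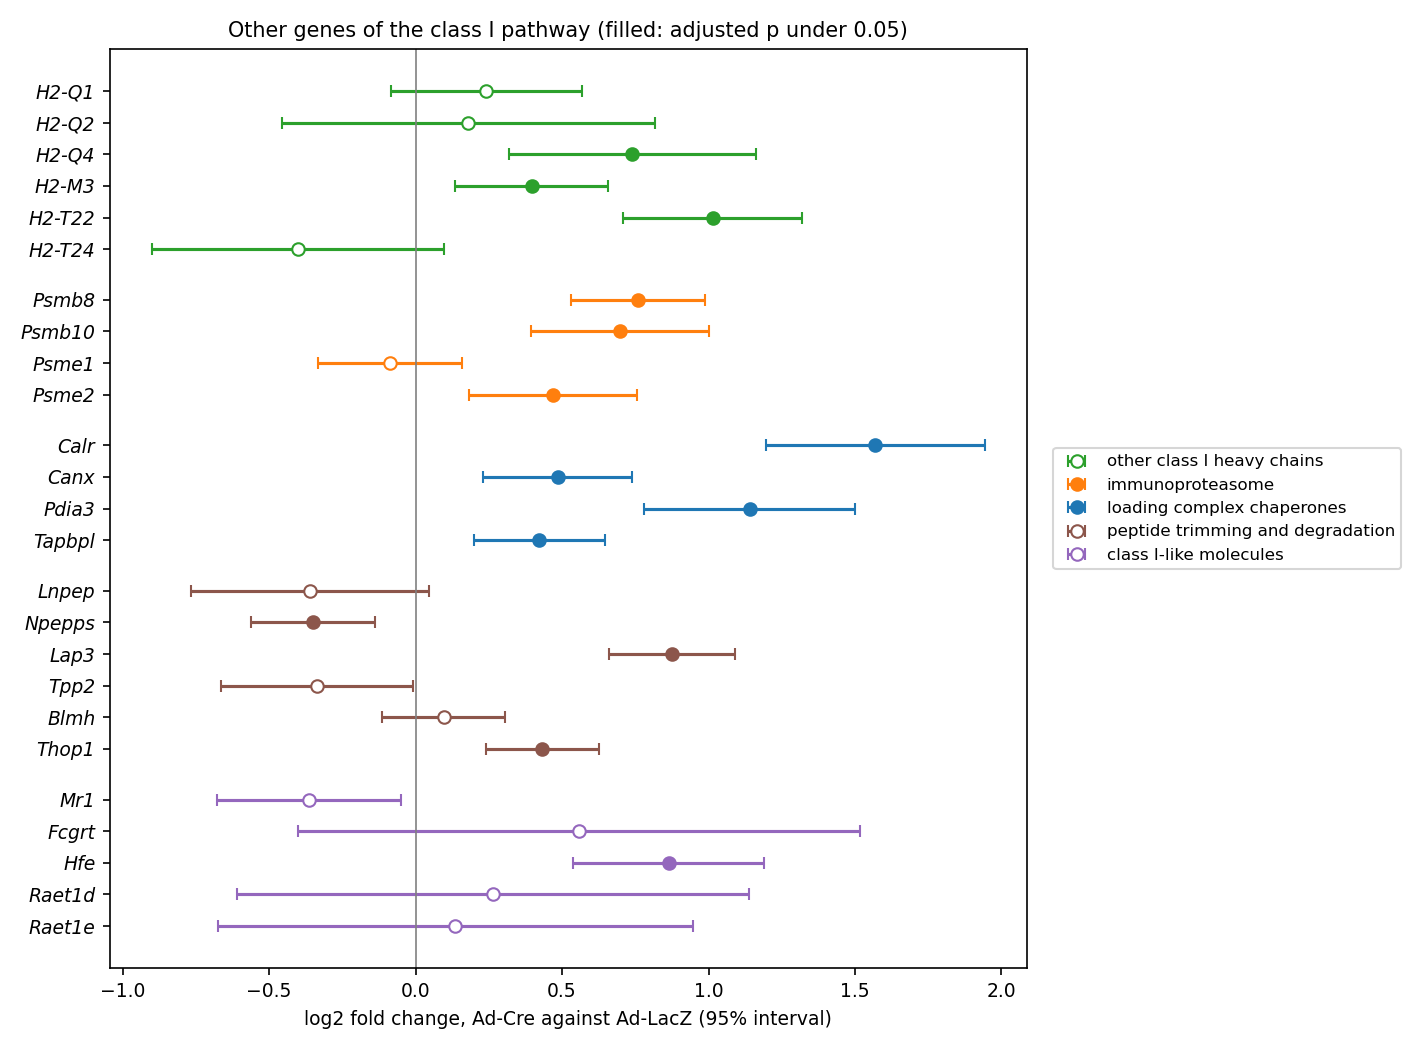
Log2 fold changes of Ad-Cre against Ad-LacZ (x axis, limma, 95% intervals, n = 4 per group) for the genes of 5 lists of the class I pathway that passed the filter (y axis, colours by list; filled points have an adjusted p under 0.05). All 4 loading complex chaperones and 3 of 4 immunoproteasome genes lie right of 0 as filled points, and Npepps is the filled point on the left.

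Upstream genes are given as counts beside all genes, of which 19.3% were called, 8.98% higher and 10.3% lower. The block raised the share of all genes to 34.5%. Interferon-induced genes were called higher more often than all genes, and these short lists were not tested as sets. Of 16 tested transcriptional regulators of class I 1 was called higher, the RFX subunit Rfxap (0.58, SE 0.10, limma adjusted p = 0.00842), and 1 lower, Creb1 (-0.40, SE 0.11, adjusted p = 0.0365), with a median of -0.01. With the block Stat2 and Relb were called too. Of 9 tested interferon ligand, receptor and signalling genes, the receptor chain Ifnar1 (0.50, SE 0.14, adjusted p = 0.0380) and the kinase Tyk2 (0.40, SE 0.08, adjusted p = 0.0118) were called higher. Of 30 interferon-induced genes 16 were tested and 5 called higher (8 with the block), among them Ifit3 (0.69, SE 0.18, adjusted p = 0.0333), Rsad2 (0.55, SE 0.14, adjusted p = 0.0272) and Usp18 (0.59, SE 0.17, adjusted p = 0.0394). Their median was 0.27. Of 3 tested class II genes 2, Cd74 and H2-Eb1, were called higher, and the summed class II level stood at 6.32 to 23.5 RPKM in Ad-Cre against 4.82 to 7.21 RPKM in Ad-LacZ. That sum changed most in M2 and F2 (log2 ratios 1.96 and 2.29, against 0.58 and 0.24 in F1 and M1), where the macrophage and stellate sums stood higher. The sum of the interferon-induced genes was split in the same way (0.62 and 0.67 against 0.15 and 0.24).

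Under the JNK inhibitor the virus comparison asks whether the same genes separate when JNK is blocked. H2-K1 rose 1.74-fold and Erap1 fell 1.73-fold, and the other tested members did not pass the test. Here 23% of 11598 genes were called, and 1 of 8 members was called higher and 1 lower. H2-K1 was measured at 115, 159, 161 and 168 RPKM in Ad-LacZ + JNK inhibitor and at 268, 237, 176 and 286 RPKM in Ad-Cre + JNK inhibitor. The groups did not overlap (log2 change 0.80, SE 0.17, limma adjusted p = 0.0105). Erap1 was at 17.3, 17.8, 18.0 and 19.0 RPKM against 9.27, 10.0, 8.95 and 8.20 RPKM, again without overlap (log2 change -0.79, SE 0.11, limma adjusted p = 0.00182). For both genes the exact permutation p was 0.0286, and groups failed to overlap in 29.7% of genes.

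H2-D1 and H2-T23 parted in the M2 preparation. H2-D1 was at 70.2, 122, 117 and 112 RPKM in Ad-LacZ + JNK inhibitor and at 193, 173, 96.8 and 162 RPKM in Ad-Cre + JNK inhibitor, higher in 3 of 4 preparations. The log2 change was 0.68 (SE 0.23, limma adjusted p = 0.0626). H2-T23 was at 6.31, 10.2, 11.7 and 10.3 RPKM against 16.2, 14.0, 8.27 and 13.2 RPKM, with a log2 change of 0.51 (SE 0.20, adjusted p = 0.104). Without preparation M2, H2-D1 (0.90, limma adjusted p = 0.0119) and H2-T23 (0.74, adjusted p = 0.0137) were called as well, which made 4 calls; without F1, M1 or F2 Erap1 alone was called. The calls over all genes moved too, to 32.5% without M2, 14.3% without F1, 5.37% without M1 and 5.22% without F2.

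Tap1 was at 1.03, 2.43, 3.50 and 2.53 RPKM in Ad-LacZ + JNK inhibitor and at 2.80, 2.84, 2.83 and 3.59 RPKM in Ad-Cre + JNK inhibitor (log2 change 0.41, SE 0.19, limma adjusted p = 0.151). Tap2 was at 3.38, 4.80, 6.91 and 6.00 RPKM against 4.71, 4.68, 3.37 and 5.41 RPKM (-0.04, SE 0.16, adjusted p = 0.870). Tapbp was at 40.9, 59.2, 61.3 and 60.1 RPKM against 55.2, 54.7, 30.9 and 45.8 RPKM (-0.13, SE 0.19, adjusted p = 0.668). These groups overlapped, and the M2 library with Ad-Cre was the lowest of its group for Tap2 and Tapbp. B2m was at 138, 105, 173 and 130 RPKM against 109, 83.4, 263 and 90.5 RPKM, lower in 3 preparations and higher in M2 (-0.01, 95% interval -0.81 to 0.78).

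Of the wider pathway, the chaperones Calr (2.14, limma adjusted p = 0.00141), Pdia3 (1.48, adjusted p = 0.00352) and Canx (0.56, adjusted p = 0.0268) were called higher under the inhibitor too, as were the heavy chains H2-T22 (1.21, adjusted p = 0.00276), H2-Q4 (0.81, adjusted p = 0.0106) and H2-M3 (0.34, adjusted p = 0.0498, but 0.0722 with the block). None of the 4 tested immunoproteasome genes was called by limma or with the block. At an unadjusted p under 0.05 there were 0 of the 4, against 4351 of all 11598 genes. The interaction test of virus and inhibitor called 0 of the 4, so the data do not show that their changes differed with the inhibitor. Psmb8 had a log2 change of 0.32 (adjusted p = 0.223) and Psmb10 of 0.26 (adjusted p = 0.566). Of 16 tested interferon-induced genes 1 was called higher and 6 lower, where 1359 of all 11598 genes were called higher and 1307 lower. The summed macrophage markers were at 176 to 376 RPKM in Ad-LacZ + JNK inhibitor and at 214 to 359 RPKM in Ad-Cre + JNK inhibitor, so these groups overlapped. Log2 ratios of the alpha cell marker sum were 0.08, 0.04, 1.05 and 0.67 in F1, M1, M2 and F2. Those of the delta and PP cell marker sum were 0.78, 0.22, 0.95 and 1.05. The part of these endocrine cells in the member values of M2 was not tested. The summed duct markers were lower with Ad-Cre, at 287 to 400 RPKM against 436 to 958 RPKM. Of the 6 duct markers 3 were tested, 1 called higher and 1 lower, with a median log2 change of -0.01. That sum therefore does not speak for each duct marker. The stellate sum was lower in all 4 preparations.

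The inhibitor comparisons ask what blocking JNK did within each virus. In Ad-Cre cells 0 of 8 members were called and 0.0% of 11503 genes by limma, with 9.48% at an unadjusted p under 0.05 (6.0% at an adjusted p under 0.05 with the block). H2-K1, at 268, 237, 176 and 286 RPKM with inhibitor against 198, 165, 211 and 202 RPKM without, was the member at an unadjusted p under 0.05 (log2 change 0.44, SE 0.17, limma adjusted p = 0.455). It was higher in 3 of 4 preparations and lower in M2. H2-D1 had a log2 change of 0.37 (95% interval -0.14 to 0.87) and B2m of 0.06 (95% interval -0.97 to 1.09). H2-T23, Tap1, Tap2 and Tapbp lay between -0.09 and 0.17. M2 stood apart from the rest: H2-D1, H2-T23, Tap1, Tap2 and Tapbp were all lower there with inhibitor, by -0.27, -0.47, -0.43, -0.62 and -0.29 on the log2 scale.

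In Ad-LacZ cells 0 of 8 members and 0.206% of 11657 genes were called by limma, and 1 member, B2m, had an unadjusted p under 0.05, as 6.35% of genes did. All 8 members had a log2 change above 0, as 48.9% of all genes did, with a median of 0.23 against -0.004 over all genes. B2m showed the largest of them: 138, 105, 173 and 130 RPKM with inhibitor against 80.2, 78.4, 111 and 103 RPKM without, higher in 4 of 4 preparations but overlapping between groups. Its log2 change was 0.56 (SE 0.16, limma adjusted p = 0.399, and 0.166 with the block, exact permutation p = 0.0286 on the scaled values). The other members lay between 0.18 and 0.29. In F1, H2-K1, H2-D1, H2-T23, Tap1, Tap2 and Tapbp were lower with inhibitor, and in the other preparations higher. The summed macrophage markers stood at 94.7 to 106 RPKM without inhibitor and at 176 to 376 RPKM with it. The sum of 6 duct markers went from 189 to 323 RPKM up to 436 to 958 RPKM, also without overlap. Of these markers 3 were tested and 0 called (1 higher with the block), with a median log2 change of 0.26. The stellate sum differed most in M2 (556 to 1241 RPKM) and F2 (350 to 714 RPKM). The part of the cell types behind these sums in the B2m values was not tested. This comparison shares its Ad-LacZ libraries with the virus comparison.

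Whether the virus changes differed with the inhibitor was tested as an interaction over all 16 libraries. None of the 8 members was called by limma, none had an unadjusted p under 0.05 (3.48% of genes did), and 0.0163% of 12274 genes were called. With the block 1 member, Erap1, had an unadjusted p under 0.05 (limma adjusted p = 0.314). The difference between the virus changes was 0.22 for H2-K1 (95% interval -0.21 to 0.66), 0.09 for H2-D1 (-0.54 to 0.73) and -0.27 for Tap1 (-0.82 to 0.27). For Erap1 it was -0.27 (-0.56 to 0.02). These intervals are as wide as most of the changes themselves, so the data do not show that the virus changes were alike with and without inhibitor.

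As deposited, without scaling, the Erap1 groups did not overlap in either inhibitor comparison, being higher with inhibitor in Ad-LacZ and lower in Ad-Cre. In those comparisons 4.84% and 11.5% of genes had groups that did not overlap. After scaling, the log2 changes were 0.18 (limma adjusted p = 0.792, exact permutation p = 0.0571) and -0.10 (adjusted p = 0.853, exact permutation p = 0.314). The deposited values of Ad-Cre + JNK inhibitor libraries were lower for most genes, with a median log2 change of -0.14 against Ad-Cre and 26.1% of 11503 genes higher.

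The members fell into sets by where their variation lay. Of the sum of squares of log2 levels over the 16 libraries, the virus took 86.8% for Erap1, 66.8% for H2-K1, 56.9% for Tap1, 51.2% for H2-D1 and 48.1% for H2-T23. The preparation took 50.8% for B2m and 31.0% for Tapbp, where the virus took 5.39% and 2.58%. For Tap2 neither took more than 10% and the remainder was 66.6%. The inhibitor took at most 16.1% for any member, in H2-K1. As a description over 16 libraries, which share 4 preparations and their groups, the Pearson r was 0.951 between H2-K1 and H2-D1, 0.968 between H2-D1 and H2-T23, -0.769 between H2-K1 and Erap1, and 0.0862 between H2-K1 and B2m.

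The genes outside the family whose log2 levels were most like the mean of the members over the same 16 libraries were Plod3 (Pearson r 0.972), Aprt (0.957), Mob3a (0.947), Grn (0.946) and Aldh2 (0.944). Plod3 is a collagen-modifying ER enzyme, Aprt salvages adenine and Grn encodes the lysosomal protein progranulin. With each preparation's mean removed, Plod3 (0.975), Aprt (0.966), Mob3a (0.962), Cers2 (0.962) and Rnaset2a (0.958) came first. These are the top of a ranking of all genes above the filter.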

How the data were processed

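PolyA libraries of dispersed islet cells were sequenced by the authors as paired-end reads on an Illumina instrument. Per the paper's methods reads were aligned to the mouse genome and counted. The values that the authors deposited and that were used here are RPKM. The submitters' processing notes name GRCm38, and the step from counts to RPKM is not given in the sources used here. A further 3 columns that match no sample were not used.

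Groups and preparations were taken from the labels. RPKM values were scaled by unweighted TMM factors, which trimmed 0.3 of the ratios and 0.05 of the levels. For each comparison, genes that exceeded 1 RPKM in 4 or more of its libraries were kept. Their log2(RPKM + 1) values went into limma 3.58.1 under R 4.3.3 (lmFit, then eBayes with a trend), two-sided, with Benjamini-Hochberg adjustment over all genes tested and calls at an adjusted p under 0.05. A fold change on this scale understates that of low genes. Per-sample values in the text are RPKM as deposited, and "groups that do not overlap" refers to those. Each 2-group comparison used its 8 libraries, the interaction 16. A replicate block for the preparation is reported beside a result where it alters the call, or shifts a number of calls over 1.5 times. The preparation names pair the libraries, because the methods describe cultures run in parallel from each biological replicate. Residuals of same-numbered libraries correlated at 0.484 to 0.716 for Ad-Cre against Ad-LacZ (mean over other pairs -0.198). The range was 0.641 to 0.819 for inhibitor in Ad-Cre, 0.126 to 0.824 for inhibitor in Ad-LacZ and 0.154 to 0.657 for the virus under inhibitor. Residuals were taken from group means, which by itself pulls the other pairs down. Exact permutation tests were two-sided over all 70 arrangements and did not keep the libraries of a preparation paired. The p-values measure the spread between 4 preparations.

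Depth was estimated as the value that makes low RPKM times GENCODE exon length whole reads (within 0.03 of a read). Between 93.3% and 94.8% of the low values came out whole. Scripts were tested on simulated data. Tables used Python 3.11.15, numpy 2.4.6 and pandas 2.3.3, and figures matplotlib 3.10.9.

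All 9 members are named. Of the other lists, genes called in Ad-Cre against Ad-LacZ with or without the block were named, at most 4 a list by smallest p, and every immunoproteasome gene. Similar genes are the 5 with the highest r. H2-T24, Lnpep, Stat2, Relb and the members' promoters were named under the same rule or after values were seen. The members and lists were chosen with earlier results of these data known.

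Alternatives were the block, a joint fit of all 16 libraries, quantile normalization, unscaled RPKM, a filter of 0.1 RPKM or none, a pseudocount of 0.1, eBayes without trend, each preparation left out, the library with the other label code left out and, added after seeing the data, F1 and M1 only.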

Additional observations from a re-analysis of the deposited data

Results flagged for a closer look

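In 5 of 36 sets of 4 libraries (each member in each group) 1 library lay far from the other 3 by Dixon's test, where chance gives about 1.8. These were B2m in Ad-Cre + JNK inhibitor, preparation M2 (263 RPKM, above the rest), H2-K1 in Ad-LacZ + JNK inhibitor, preparation F1 (115 RPKM, below), H2-D1 in Ad-LacZ, preparation F2 (65.0 RPKM, below), Tap1 in Ad-Cre + JNK inhibitor, preparation F2 (3.59 RPKM, above) and Tapbp in Ad-LacZ + JNK inhibitor, preparation F1 (40.9 RPKM, below).

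Erap1 moved up with the JNK inhibitor in all 4 preparations with Ad-LacZ (log2 change 0.18) and down in all 4 with Ad-Cre (-0.10). The difference, tested as the interaction in limma, was -0.27 (95% interval -0.56 to 0.02, limma adjusted p = 0.9996), and a block for preparation gave a limma adjusted p of 0.314, so it did not pass the correction.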

How the results depend on the processing

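The number of members called in Ad-Cre against Ad-LacZ was 5, and it became 3 without a filter, 3 with all 16 libraries in one fit, 0 to 3 when a preparation was left out and 0 with F1 and M1 only. Under JNK inhibitor it was 2, and became 1 after quantile normalization, 1 to 4 when a preparation was left out and 4 with F1 and M1 only. It stayed at 0 in the inhibitor comparisons and the interaction. No called member changed direction. After quantile normalization H2-K1 fell from 0.60 to 0.32 (limma adjusted p = 0.0694), and under inhibitor from 0.80 to 0.32 (adjusted p = 0.205). Of 536 single values 467 kept their side of the threshold and direction, 29 lost a call, 5 gained one and 35 changed sign.

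The preparation as a replicate block left the member calls at 5 and 2; it raised calls over all genes from 2237 to 4002 for Ad-Cre against Ad-LacZ, from 0 to 690 for inhibitor in Ad-Cre and from 24 to 42 for inhibitor in Ad-LacZ. The first was 1502 without a filter and 373 to 1070 when a preparation was left out; under inhibitor, 2666 became 574 to 3568, and the calls of the as-deposited values were 950 higher and 2106 lower against 1359 and 1307. Inhibitor in Ad-LacZ gave 6 without a filter, 7 as deposited, 9 in the joint fit and 1 to 2 when a preparation was left out; inhibitor in Ad-Cre gave 76 in the joint fit.

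Values that changed sign were all uncalled. For inhibitor in Ad-Cre, B2m was -0.086 as deposited and -0.18 after quantile normalization, and Tap2 was 0.0073 without a filter, 0.011 at 0.1 RPKM, 0.030 after quantile normalization and 0.0040 in the joint fit. Under inhibitor, B2m was 0.0022 in the joint fit and Tap2 0.018 after quantile normalization. For the interaction, H2-D1 was -0.045 as deposited and -0.14 after quantile normalization. With F1 and M1 only, Tap1 was 0.071 and Tap2 0.23 for inhibitor in Ad-Cre, H2-T23 was -0.071 and Tap1 -0.13 for inhibitor in Ad-LacZ, Tap2 was 0.23 and Tapbp 0.21 under inhibitor, and the interaction was 0.44 for H2-T23, 0.22 for Tap1, 0.20 for Tap2 and 0.27 for Tapbp. When a preparation, or the library with the other label code alone, was left out, Tapbp ran from -0.094 to 0.0088 for Ad-Cre against Ad-LacZ. For inhibitor in Ad-Cre, B2m ran from -0.062 to 0.27, Tap1 from -0.18 to 0.018 and Tap2 from -0.11 to 0.18. Under inhibitor, B2m ran from -0.32 to 0.15, Tap2 from -0.18 to 0.14 and Tapbp from -0.31 to 0.051. The interaction ran from -0.13 to 0.30 for H2-D1, -0.27 to 0.23 for H2-T23 and -0.26 to 0.081 for Tapbp. The cause of these sign changes was not tested. Depth limits Nlrc5, at 2 to 119 reads.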
